A study of Mus musculus with 12 samples.

Results

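The nuclear genes that encode subunits of oxidative phosphorylation were compared in 12 bulk RNA sequencing libraries whose labels name monocytes of the meninges, the membranes around the brain, from male C57BL/6J mice. The members were every gene with a symbol beginning Ndufa, Ndufb, Ndufc, Ndufs or Ndufv and a number (Ndufab1 included), Sdha to Sdhd, every Uqcr gene, the Cox genes numbered 4 to 8, Cyc1 and every Atp5 gene, without names ending in -ps or os. The rule matched 97 genes, of which 89 could be followed in all libraries, out of 27571 such genes in the series. Of these 89, 83 encode subunits, with 36 genes for complex I, 4 for complex II, 9 for complex III, 18 for complex IV (Ndufa4 included) and 16 for complex V. The other 6 (Atp5s, Dmac2, Cox7a2l, Ndufa4l2, Ndufb4c and Uqcrh-ps1) match by name and were not counted as subunits. The 8 matched genes that could not be followed were 7 processed pseudogenes and a second Atp5o entry. After a filter on low counts 84 members were tested, 80 of them subunits; Cox6a2, Cox7b2 and Cox8c did not pass it.

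One group of 3 libraries came from unstressed mice. The other 3 groups, also of 3 libraries, came from mice restrained over 18 days and then given vehicle, psilocybin (the precursor of psilocin, a serotonin receptor agonist) or MDMA (an amphetamine derivative that releases monoamines), with tissue taken 24 hours later. The sources used here give no dose, no age and no number of mice per library, and they do not say whether the replicates are different animals. The p-values therefore measure only the spread between these libraries, which may be technical. Cells were isolated with a magnetic monocyte kit. Joined gene counts ran from 788529 in vehicle replicate 2 to 5010565 in MDMA replicate 3. The libraries also held choroid plexus RNA: in CPM (a gene's share of a library's joined gene counts, scaled to the usual fixed total), the 12 choroid plexus markers summed to between 13830 and 132613, while 8 classical monocyte markers summed to between 243 and 1239. In such mixed bulk samples fewer cells of a type and less RNA per cell cannot be told apart. The unstressed libraries were counted with a RefSeq annotation and the stressed ones with an Ensembl annotation, so that annotation and the unstressed group cannot be told apart.

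Oxidative phosphorylation is carried by 5 complexes of the inner mitochondrial membrane. Complex I takes electrons from NADH and complex II from succinate, complex III passes them to cytochrome c, complex IV passes them to oxygen, and complex V uses the resulting proton gradient to make ATP. Most subunits are encoded in the nucleus and imported, whereas a small set in complexes I, III, IV and V is encoded by mitochondrial DNA (mtDNA). The complexes are assembled from both sets, and several nuclear subunits have isoforms used in particular tissues.

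The summed level of the 83 nuclear subunits was highest and least variable in the psilocybin libraries. The sum was 18820, 18308 and 15318 CPM in psilocybin replicates 1, 2 and 3, against 12337, 8609 and 7378 CPM in the MDMA libraries. It was 6327, 10112 and 5546 CPM in the unstressed libraries. Every psilocybin library lay above every MDMA and every unstressed library. In the vehicle libraries the sum was 20099, 11610 and 4432 CPM, a range that held every other library. The group means were 17482 ± 1891 CPM for psilocybin, 12047 ± 7843 for vehicle, 9441 ± 2582 for MDMA and 7328 ± 2442 for unstressed (SD, n = 3 each). Only the order of psilocybin above MDMA and above unstressed held without overlap of libraries.

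**Figure D1:**
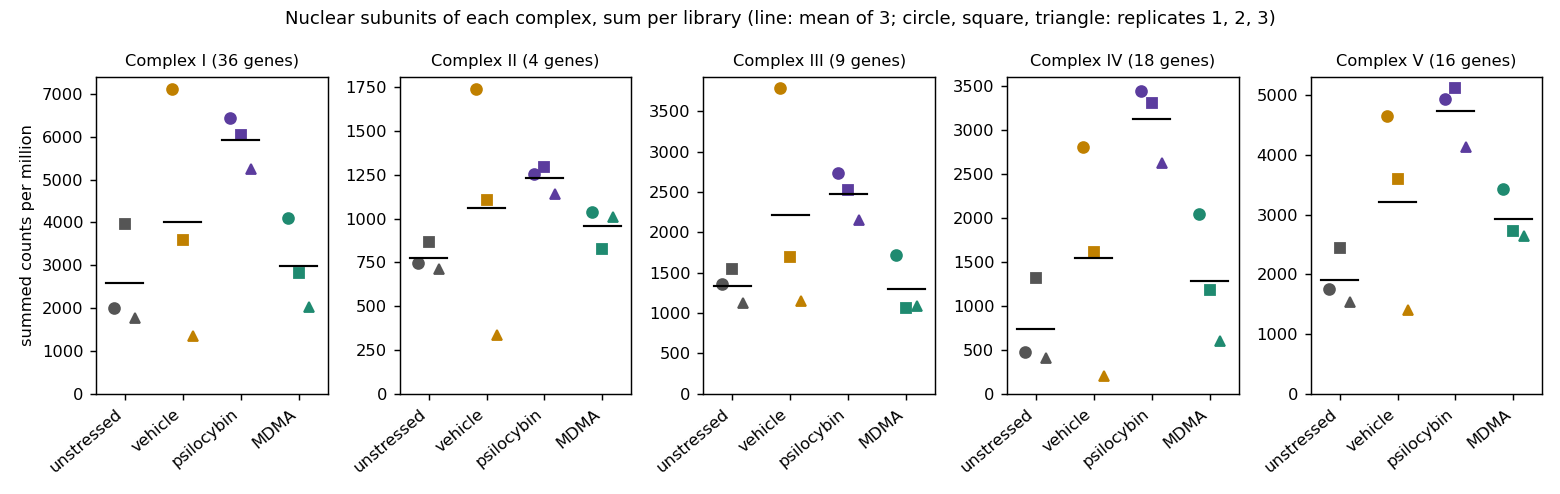
Summed CPM of the nuclear subunits of each complex (y axis) in every library, by group (x axis); symbols are replicates and the line is the mean of 3. In each complex the 3 psilocybin libraries lie above the MDMA and unstressed libraries, while vehicle replicates 1 and 3 lie at opposite ends.

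In each complex too the psilocybin mean was above those of MDMA and unstressed, by unequal amounts. For complex IV the mean sum was 3129 ± 440 CPM with psilocybin, 1278 ± 728 with MDMA and 731 ± 504 unstressed (SD, n = 3), so the psilocybin mean was 2.45 times the MDMA mean and 4.28 times the unstressed mean. For complex I, the NADH dehydrogenase, it was 5916 ± 601 CPM against 2984 ± 1042 and 2574 ± 1206, ratios of 1.98 and 2.30. Complex II, the smallest complex, had the lowest ratios in these comparisons. Its sum was 1230 ± 80 CPM with psilocybin, 958 ± 115 with MDMA and 775 ± 79 unstressed, ratios of 1.28 and 1.59. For complexes III and V the ratios to MDMA were 1.92 and 1.62 and those to unstressed 1.85 and 2.48. Complex IV thus made up 17.9% ± 0.62 of the subunit counts with psilocybin, 12.8% ± 4.3 with MDMA, 10.8% ± 5.4 with vehicle and 9.27% ± 3.2 unstressed. The complexes also differ in gene length. In RefSeq the complex II genes have 1078 (Sdhb) to 2859 (Sdha) exonic bases. Those of complex IV have 363 (Cox8b) to 1001 (Cox7b), apart from Cox4i2 with 2202. Differences fell with length, as described below, and the part of length in the order of the complexes was not tested.

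Gene by gene, 69 of the 80 tested subunits had their highest group mean with psilocybin, 8 with vehicle, 2 with MDMA and 1 unstressed. The lowest group mean was unstressed for 60 subunits, MDMA for 19 and vehicle for 1. By single libraries, vehicle replicate 3 alone held the lowest value of 54 subunits and vehicle replicate 1 the highest value of 28. In vehicle replicate 3, 10 of the 80 tested subunits had no count at all, while no more than 1 of them was missing in any other library. That library had 1862889 joined counts on 9520 genes and vehicle replicate 1 had 3531254 on 10340, while the other 10 libraries, vehicle replicate 2 with its 788529 counts included, had counts on 13458 to 17918 genes. The replicates of psilocybin lay closest: the median coefficient of variation over the 80 tested subunits was 13.8% there, 52.9% with MDMA, 62.2% unstressed and 81.9% with vehicle. Over the 13858 other tested genes it was 23.6%, 43.2%, 37.8% and 104% in the same order.

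**Figure D2:**
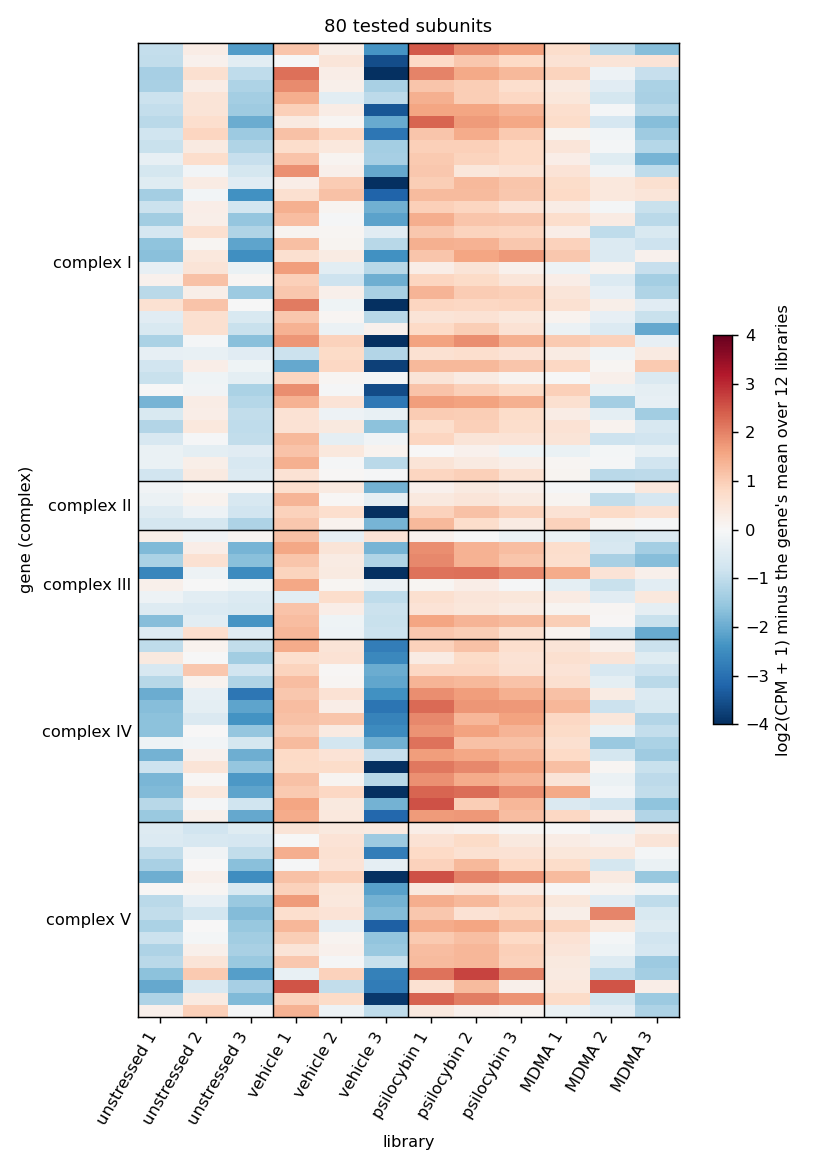
Level of the 80 tested subunits (rows, ordered by complex) in each library (columns), as log2(CPM + 1) minus the gene's mean over the 12 libraries; red is above and blue below that mean. The psilocybin columns are red for nearly all subunits, and vehicle replicate 3 alone holds the lowest value of 54 of them.

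No member passed an adjusted p of 0.05 in any of the 6 group comparisons or in the test of any difference among the 4 groups, which 0.581% of all genes passed (edgeR quasi-likelihood test, all 12 libraries, Benjamini-Hochberg over 13942 genes). Differences below are therefore given as values. Log2 differences come from that fit, with their standard errors, and positive values mean higher in the first group named.

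Psilocybin against MDMA compared groups that share the stress, the annotation and the time of sampling. Of the 80 subunits, 78 had a positive log2 difference (51.1% of all genes did), with a median of 1.18, against a median of 0.02 over all genes tested. The 3 psilocybin libraries lay above all 3 MDMA libraries for 69 subunits, of which 32 belong to complex I, 2 to complex II, 9 to complex III, 14 to complex IV and 12 to complex V. Over all tested genes 7.6% showed that separation. At an unadjusted p under 0.05 in edgeR, 17 subunits were higher with psilocybin, out of 33 higher genes in all (0.237% of those tested), and 0 were lower (0.344% of all genes). edgeR's adjusted threshold called 0% of all genes here, so that the members' 0 calls stand beside 0 calls in the whole table. Only Atp5l and Atp5g2 had a negative difference (-0.76 ± 1.38 and -0.12 ± 1.26). The separation depended partly on MDMA replicate 3: without it the median was 0.80, with 77 positive subunits and 0 members at an unadjusted p under 0.05.

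The 3 smallest p-values in this comparison belonged to Ndufv3, Atp5k and Cox8b. Ndufv3, an accessory subunit beside the flavoprotein of complex I, was at 237, 251 and 197 CPM in the psilocybin libraries and at 141, 60.5 and 62.3 CPM in the MDMA libraries. The groups did not overlap, and the difference was 1.47 ± 0.51 (edgeR adjusted p = 1). Atp5k, the e subunit of the membrane part of ATP synthase, was at 122, 180 and 109 CPM with psilocybin and 34, 12.5 and 9.78 CPM with MDMA. It was low in the other groups as well, at 7.87, 56.2 and 4.93 CPM unstressed and 21.5, 50.7 and 3.22 CPM with vehicle. Every psilocybin library was therefore above every other library, with differences of 2.95 ± 1.03 from MDMA, 2.48 ± 1.02 from vehicle and 2.60 ± 1.02 from unstressed. Cox8b, the complex IV isoform used mainly in heart and skeletal muscle, was at 20.6, 6.33 and 8.29 CPM with psilocybin and 1.44, 1.11 and 0.2 CPM with MDMA (3.75 ± 1.37). Its level was low throughout. The 10 skeletal muscle markers summed to 3.56 to 8.79 CPM with psilocybin and 3.79 to 8.64 with MDMA. The 7 markers of cardiac muscle and brown fat summed to 36.9, 13.4 and 22.9 CPM with psilocybin and 16.4, 2.95 and 5.79 CPM with MDMA. Of these, Cidea, a lipid droplet protein of brown fat, held 31.2, 11.1 and 18.3 CPM with psilocybin and 12.4, 1.48 and 3.79 CPM with MDMA. That list was thus also higher in mean with psilocybin, with overlapping libraries, and its part in the Cox8b values was not tested.

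Against unstressed libraries the psilocybin differences were larger. Of 80 subunits 78 were positive (50.6% of all genes), with a median of 1.5 against 0.01 over all genes. For 69 subunits every psilocybin library lay above every unstressed library, where 18.8% of all genes did. At an unadjusted p under 0.05, 38 subunits were higher (3.3% of all genes) and 0 lower (3.03%). By complex these were 11 of 36 in complex I, 1 of 4 in II, 4 of 9 in III, 10 of 15 in IV and 12 of 16 in V. edgeR's adjusted threshold was passed by 0.0861% of all genes in this fit. The number of calls here changed with the fit, and the cause was not tested. An edgeR fit of the 6 libraries alone called 45 members higher (10.3% of all genes, in either direction), and limma voom with sample quality weights, chosen after the data had been seen, called 60 higher (19.6% of all genes). DESeq2 called 5 members (1.81% of all genes), and plain limma voom 0. The unstressed files were counted over other exons. For 67 of the 83 subunits, exonic bases shared with no other gene were over 1.1 times as many in GENCODE as in RefSeq. For 5 the reverse held, and the median ratio was 1.64. GENCODE stands here for the Ensembl annotation of the stressed files. The part of this in the differences was not tested. The 7 tested subunits with nearly the same exons in both annotations were read apart (Atp5c1, Cox8b, Ndufa2, Ndufb11, Ndufb3, Sdhd and Uqcrfs1). All 7 were positive, with a median of 1.91.

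Uqcrh, the hinge protein of complex III beside cytochrome c1, had the smallest p. It was at 265, 231 and 216 CPM with psilocybin and 26.4, 65.5 and 16.4 CPM unstressed. The vehicle libraries gave 212, 78.6 and 47.2 CPM and the MDMA libraries 176, 91.1 and 47.7 CPM. Psilocybin lay above all other libraries, and differed by 2.73 ± 0.71 from unstressed (edgeR adjusted p = 0.209). Cox6a1, the widely expressed isoform of complex IV subunit 6A, was at 356, 312 and 264 CPM with psilocybin and 24, 77.9 and 12.3 CPM unstressed, a difference of 3.06 ± 0.83 (edgeR adjusted p = 0.231). With vehicle it was at 208, 147 and 17.2 CPM and with MDMA at 219, 123 and 66.7 CPM, again below every psilocybin library. Cox6b1, which sits between the monomers of the complex IV dimer, was at 212, 149 and 148 CPM with psilocybin and 12.7, 32.5 and 9.19 CPM unstressed (3.25 ± 0.95, edgeR adjusted p = 0.308). Its vehicle libraries gave 104, 52 and 4.83 CPM and its MDMA libraries 111, 23.2 and 28.1 CPM. All 3 genes thus ranked the psilocybin libraries above the other 9.

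Promoters of nuclear subunit genes are known for sites of NRF1 and of ETS factors such as GABP (NRF2), which take part in mitochondrial biogenesis. RefSeq promoters on GRCm38.p6, 250 bases before to 50 after the start, were found for 66 of the 83 subunits and were searched on both strands. A subunit was counted if any of its promoters held a word, while the share over all was taken per single promoter. The shares below are thus unlike measures, and a gene with several promoters has more chances of a match. The NRF1 word, GCGCA and GCGC with any base between them, was in 17 of the 66 (25.8%) and in 4.6% of all 32851 promoters of that length. The ETS word CCGGAAG was in 16 (24.2%, against 8.86%), the YY1 word AAGATGGCG in 7 (10.6%, against 1.4%), the word TCAAGGTCA of estrogen-related receptors in 2 (3.03%, against 0.423%) and the Sp1 word GGGCGG in 26 (39.4%, against 35.7%). Matches of different words overlapped in 1 of the 66 promoters. Of the 66, 34 held at least 1 of the first 4 words and 32 none. The median difference between psilocybin and MDMA was 1.16 for the 34 with a word and 1.41 for the 31 tested without one, and against unstressed 1.67 and 1.91. Subunits with and without these words thus had positive medians alike. The 250 bases upstream of the start are shown for the genes of the last comparisons and, as a contrast, for Sdha, whose level differed little (these 5 were chosen after their values were seen); capitals mark NRF1 and ETS words on either strand, so an ETS word can read CTTCCGG. Positions are those of Cox6a1 (chr5:115348959-115349208), Cox6b1 (chr7:30626115-30626364), Uqcrh (chr4:116075071-116075320), Atp5k (chr5:108434400-108434649) and Sdha (chr13:74350241-74350490), all on the minus strand and printed 5′ to 3′ along the gene.
Cox6a1: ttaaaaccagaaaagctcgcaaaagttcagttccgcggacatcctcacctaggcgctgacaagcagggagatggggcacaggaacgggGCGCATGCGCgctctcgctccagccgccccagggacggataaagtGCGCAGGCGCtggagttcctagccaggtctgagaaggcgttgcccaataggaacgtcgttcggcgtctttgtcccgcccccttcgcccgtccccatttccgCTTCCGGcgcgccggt
Cox6b1: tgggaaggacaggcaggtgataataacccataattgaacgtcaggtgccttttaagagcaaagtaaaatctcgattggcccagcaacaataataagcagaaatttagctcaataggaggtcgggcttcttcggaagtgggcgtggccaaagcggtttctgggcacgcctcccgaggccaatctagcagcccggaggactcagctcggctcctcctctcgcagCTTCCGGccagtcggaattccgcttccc
Uqcrh: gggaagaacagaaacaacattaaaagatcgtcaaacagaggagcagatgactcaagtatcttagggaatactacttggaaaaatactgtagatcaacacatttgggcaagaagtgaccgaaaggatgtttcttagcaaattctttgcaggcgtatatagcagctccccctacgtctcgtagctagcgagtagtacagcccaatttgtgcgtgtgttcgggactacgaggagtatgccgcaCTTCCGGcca
Atp5k: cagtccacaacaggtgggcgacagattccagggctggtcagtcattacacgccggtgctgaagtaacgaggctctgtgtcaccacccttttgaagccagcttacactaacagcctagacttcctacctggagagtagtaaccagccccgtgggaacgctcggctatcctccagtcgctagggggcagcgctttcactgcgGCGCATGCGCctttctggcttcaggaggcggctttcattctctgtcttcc
Sdha: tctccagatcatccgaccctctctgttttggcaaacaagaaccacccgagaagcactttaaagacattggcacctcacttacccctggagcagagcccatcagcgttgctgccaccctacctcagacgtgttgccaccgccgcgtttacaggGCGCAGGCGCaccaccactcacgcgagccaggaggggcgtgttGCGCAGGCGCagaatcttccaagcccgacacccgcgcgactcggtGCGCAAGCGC
Cox6a1 holds 2 NRF1 words and 1 ETS word upstream, Cox6b1 and Uqcrh 1 ETS word each, Atp5k 1 NRF1 word and Sdha 3 NRF1 words. Atp5k is also among the 16 subunits counted for the ETS word, which does not lie wholly within the 250 bases shown. A match of letters does not show that a factor binds there.

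Between psilocybin and MDMA, 8 catalytic subunits differed less than most other subunits. Sdha, the flavoprotein of complex II, was at 544, 612 and 556 CPM with psilocybin, 467, 453 and 639 CPM with MDMA and 433, 477 and 476 CPM unstressed. Psilocybin and MDMA overlapped, with a difference of 0.21 ± 0.46, and the one from unstressed was 0.29 ± 0.46. Its vehicle libraries ranged widely, at 771, 624 and 129 CPM. Atp5a1 and Atp5b form the catalytic head of ATP synthase, and their psilocybin and MDMA libraries overlapped (0.24 ± 0.34 and 0.33 ± 0.38). Atp5b was at 1031, 1175 and 903 CPM with psilocybin and at 467, 443 and 435 CPM unstressed, without overlap (1.2 ± 0.39, edgeR adjusted p = 0.408). Ndufs1 carries some of the iron-sulfur clusters of complex I, and Ndufv1 its flavin. They differed between psilocybin and MDMA by 0.50 ± 0.47 and 0.29 ± 0.44. Uqcrfs1, the Rieske iron-sulfur protein, and Cyc1, cytochrome c1, differed by 0.55 ± 0.48 and 0.58 ± 0.47. Sdhb, the iron-sulfur subunit of complex II, differed by 0.93 ± 0.49, with psilocybin libraries at 295, 316 and 290 CPM and MDMA libraries at 246, 115 and 141 CPM. These 8 catalytic genes all lay below the subunits' median of 1.18. They are also all longer than the subunits' median of 739 exonic bases in RefSeq, from 1078 (Sdhb) to 2979 (Ndufs1). Differences were smaller for longer subunits, as described below, and the parts of role and length were not tested.

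**Figure D3:**
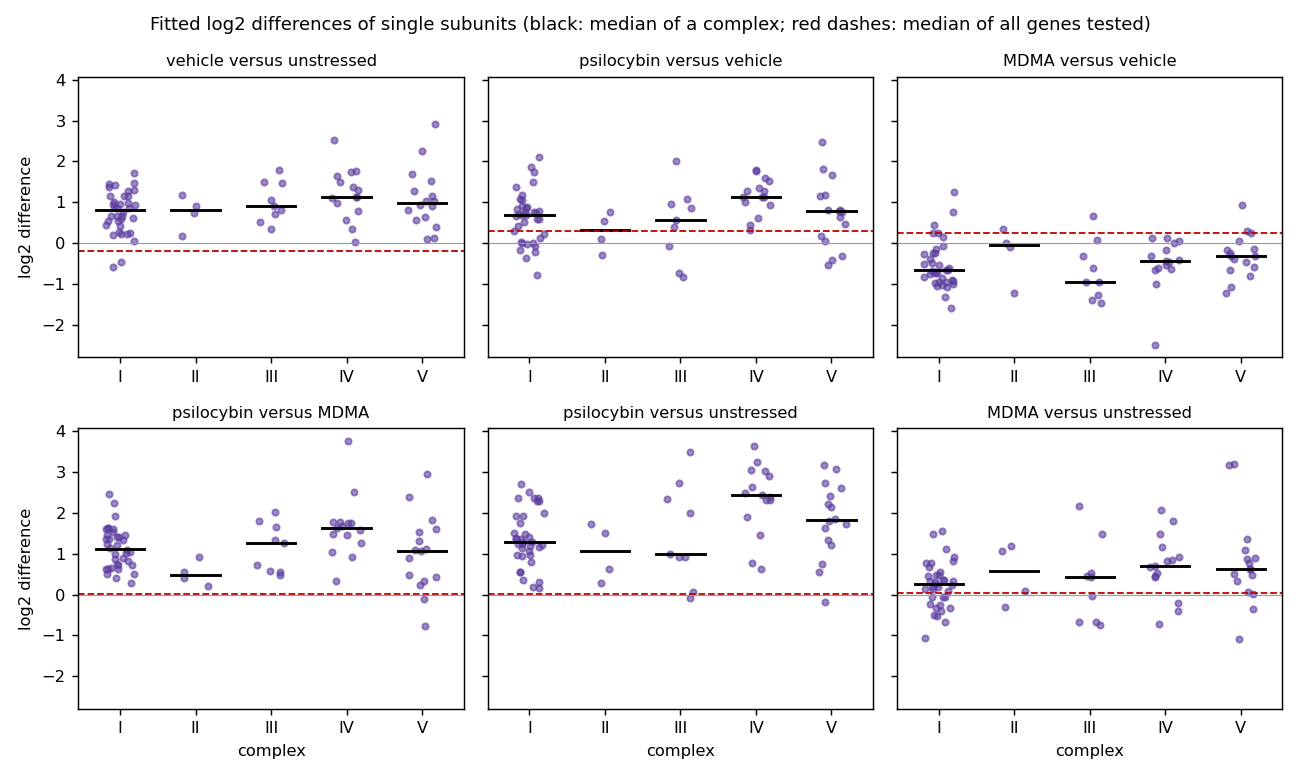
Fitted log2 difference (y axis) of each tested subunit by complex (x axis) in the 6 comparisons; black lines are medians of a complex and red dashes the median of all 13942 genes tested. Psilocybin against MDMA and against unstressed has nearly all subunits above the dashes, with complex IV highest and complex II near the low end.

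Against vehicle the psilocybin differences were smaller and the libraries overlapped for most subunits. Of 80 subunits 67 were positive (59.8% of all genes), with a median of 0.76 against 0.31 over all genes. Without overlap, 27 lay above vehicle (20.8% of all genes did) and 1, Atp5a1, below (2.64%). At an unadjusted p under 0.05, 3 were higher (12.1% of all genes) and 0 lower (3.81%), shares below those of all genes. Atp5k, described above, and Ndufa3 were among the 3 subunits with the smallest p-values. Ndufa3, a small membrane subunit of complex I, was at 160, 103 and 93.7 CPM with psilocybin and 40.5, 33 and 6.98 CPM with vehicle (2.10 ± 0.91, edgeR adjusted p = 0.273). By edgeR's adjusted threshold 0.0143% of all genes passed. The median moved with single vehicle libraries, from 0.35 to 1.5 when 1 library of either group was left out; without vehicle replicate 2, 3 members passed (among them Ndufs1 higher and Cyc1 lower), with 24.4% of all genes.

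MDMA against vehicle had the opposite sign for most subunits, but the sign rested on 1 library. Of 80 subunits 17 were positive (57.1% of all genes), and the median was -0.52 where all genes had 0.24. Without vehicle replicate 1, the library with the highest subunit sum, the median became 0.33 with 56 positive subunits. Uqcrc1, a core protein of complex III, was at 468, 329 and 451 CPM with MDMA and 1781, 639 and 520 CPM with vehicle. The groups did not overlap, with a difference of -1.46 ± 0.45 (edgeR adjusted p = 0.108). Its unstressed libraries, at 707, 599 and 544 CPM, also lay above all MDMA libraries. Cyc1 showed 167, 123 and 135 CPM with MDMA, 458, 160 and 297 CPM with vehicle and 236, 183 and 217 CPM unstressed, and differed from vehicle by -1.39 ± 0.48 (edgeR adjusted p = 0.141). Ndufc1, a small subunit of complex I, was at 134, 107 and 37.3 CPM with MDMA and 409, 132 and 176 CPM with vehicle (-1.59 ± 0.62, edgeR adjusted p = 0.198), with overlapping libraries. Libraries without overlap were found for 3 lower subunits and 1 higher subunit, where 1.86% and 17% of all genes did so. At an unadjusted p under 0.05, 5 were lower (3.49% of all genes) and 0 higher (13.2%). DESeq2 called Uqcrc1, Cyc1 and Ndufv1 lower (9.86% of all genes) and limma voom called Uqcrc1 lower (6.36%), whereas 0.674% of all genes and no member passed in edgeR. Without vehicle replicate 2 edgeR called 5 members, among them Sdhb, Cyc1, Uqcrc1 and Ndufc1 lower (25% of all genes).

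Vehicle against unstressed, groups that differ in restraint, in vehicle dosing and in the counting annotation, had 78 of 80 positive subunits (45% of all genes) and a median of 0.92 where all genes had -0.18. Libraries overlapped for most: 3 subunits lay without overlap above unstressed (2.96% of all genes did) and 0 below (17.5%). At an unadjusted p under 0.05, 6 were higher (4.41% of all genes) and 0 lower (14.1%). The 3 above were Atp5a1, Ndufs3 and Ndufv1. Atp5a1, the alpha subunit of the ATP synthase head, was at 799, 733 and 713 CPM with vehicle and 388, 325 and 402 CPM unstressed (1.17 ± 0.35, edgeR adjusted p = 0.0773). It was also one of the few subunits whose vehicle libraries agreed closely. Ndufv1, the flavoprotein of complex I, was at 295, 180 and 147 CPM with vehicle and 111, 102 and 96.8 CPM unstressed (1.15 ± 0.45, edgeR adjusted p = 0.179). Uqcrh differed by 1.79 ± 0.69 (edgeR adjusted p = 0.178). edgeR's adjusted threshold was passed by 3.42% of all genes. DESeq2 called Atp5a1, Ndufv1 and Uqcrh higher (12.9% of all genes) and limma voom called Atp5a1 (10.1%). Without vehicle replicate 2 edgeR called 3 members, among them Atp5a1 and Ndufv1 higher (25.4% of all genes). Without vehicle replicate 3 it called 5 higher (Atp5g1, Atp5c1, Ndufc2, Uqcrfs1 and Sdhc, with 6.77% of all genes). The median depended on vehicle replicate 1, and was 0.18 without it.

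MDMA against unstressed gave the smallest differences. Of 80 subunits 58 were positive (51.8% of all genes), with a median of 0.44 against 0.04 over all genes, and 13 lay without overlap above unstressed (12.6% of all genes) and 3 below (10%). The share above was close to that of all genes. At an unadjusted p under 0.05, 5 were higher (2.27% of all genes) and 0 lower (2.7%). Atp5b had the smallest p, at 850, 775 and 992 CPM with MDMA (0.88 ± 0.39, edgeR adjusted p = 0.922), followed by Cox6a1 (1.79 ± 0.79) and Atp5g2 (3.18 ± 1.41). edgeR's adjusted threshold was passed by 0.122% of all genes.

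Isoforms with tissue-specific use were minor in every group. Cox4i1, the common isoform of complex IV subunit 4, had the highest level per kilobase among all members (671 CPM per kb of RefSeq exons, mean over libraries). By the same lengths Ndufa4 followed at 544. The stressed libraries were counted over other exons, and Ndufa4 has 492 exonic bases in RefSeq but 1381 in GENCODE, so this ranking depends on the annotation. The isoforms of a pair are compared per kb of exons, with the lengths of each group's own annotation. Cox4i2, the isoform of lung and other oxygen-sensing cells, was at 0.0115 to 0.0678 of the level of Cox4i1 by group. Cox7a1, the muscle isoform, was at 0.0464 to 0.0892 of Cox7a2, and Cox6a2, the muscle isoform of subunit 6A, at 0 to 0.0117 of Cox6a1 with 16 counts in all libraries. Cox6b2, the testis isoform, was at 0.0672 to 0.0871 of Cox6b1. Cox8b was at 0.0777 of Cox8a with psilocybin, 0.0173 with MDMA, 0.126 with vehicle and 0.0603 unstressed. Thus the common isoform led each pair in each group.

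The c ring of complex V is built from 1 protein encoded by 3 genes. Atp5g1 was at 348, 309 and 239 CPM with psilocybin and 173, 92.6 and 62.7 CPM with MDMA, and Atp5g3 at 296, 319 and 242 CPM and 195, 143 and 74 CPM. Both lay above MDMA without overlap (1.53 ± 0.69 and 1.12 ± 0.80). Atp5g2 stayed at 11.8 CPM or below in every library and overlapped between the 2 groups. Ndufa4l2, a paralog of Ndufa4 induced by low oxygen and no subunit by role, was per kb of exons at 0.148 of the level of Ndufa4 unstressed, 0.0537 with vehicle, 0.0823 with psilocybin and 0.136 with MDMA. Its own level was 49.3, 32.3 and 22.4 CPM unstressed and 20.7, 12.7 and 0 CPM with vehicle, without overlap, with a difference of -1.59 ± 1.13.

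The differences between the groups moved with gene length in most comparisons. Subunit transcripts are short, from 292 to 2979 exonic bases in RefSeq with a median of 739. Between psilocybin and MDMA the median difference was 1.61 for the 27 subunits under 600 bases, 1.08 for the 16 from 600 to under 800, 0.83 for the 12 from 800 to under 1200, 0.62 for the 19 from 1200 to under 2000 and 0.41 for the 6 from 2000 to under 4000. Other genes of the same lengths showed the same order, with medians of 0.96, 0.65, 0.44, 0.22 and 0.01. The subunits' median was the higher in each class, and no test was made of that. Across the 80 subunits, which share all libraries, Spearman's rho of length and difference was -0.67 for psilocybin against MDMA and -0.62 against unstressed, and -0.25 and -0.41 across the 13858 other genes. For MDMA against vehicle it was 0.06 for the subunits. For MDMA against unstressed it was -0.08 for the subunits and -0.27 for the other genes.

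**Figure D4:**
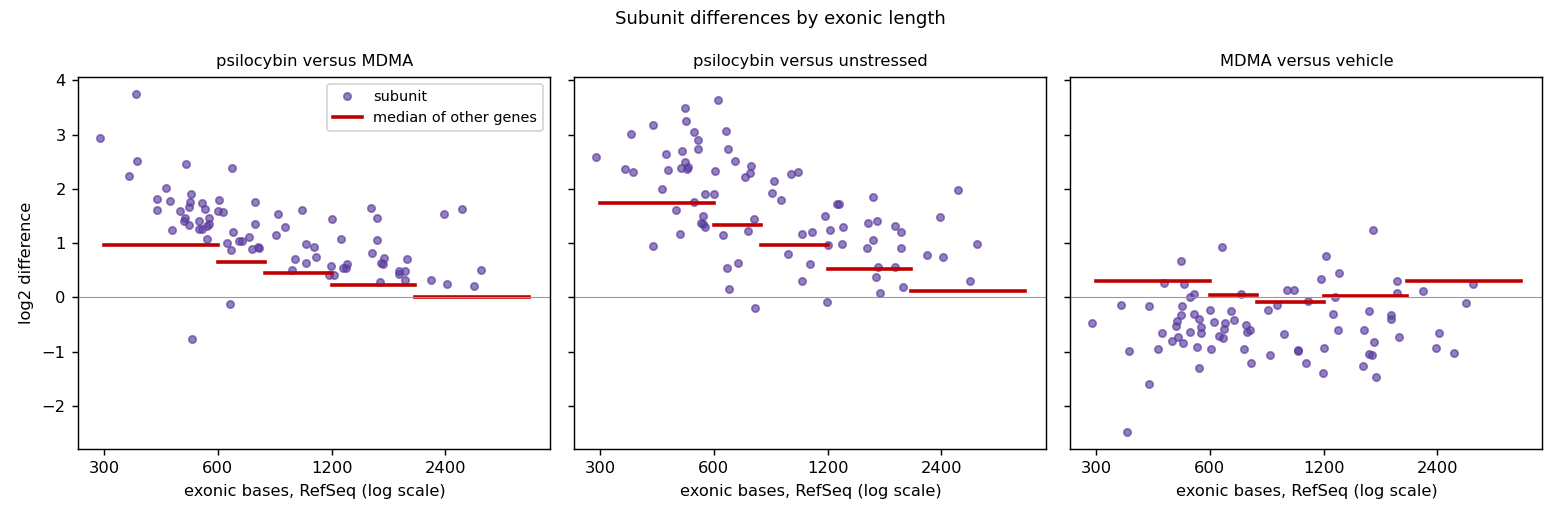
Log2 difference (y axis) of each tested subunit against its RefSeq exonic length (x axis, log scale) in 3 comparisons; red lines are medians of other genes in length classes, the first class being all under 600 bases. Short subunits differ most between psilocybin and MDMA or unstressed, other short genes also lie above 0 there, and MDMA against vehicle has no such slope.

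The same could be read in single libraries. The summed CPM of the 29 subunits under 600 bases, divided by that of the 25 subunits of 1200 bases or more, was 0.672, 0.61 and 0.586 in the psilocybin libraries and 0.469, 0.319 and 0.154 in the MDMA libraries. It was 0.173, 0.427 and 0.149 unstressed and 0.398, 0.32 and 0.227 with vehicle. All psilocybin libraries were above the other 9. The share of the counts of other genes that fell on genes under 800 bases was 2.11%, 1.95% and 2.06% with psilocybin, 2.06%, 1.24% and 0.782% with MDMA, 0.615%, 1.38% and 0.542% unstressed and 1.91%, 1.13% and 0.581% with vehicle. The libraries with the lowest ratios thus had the lowest shares of other short genes, though the 2 measures use unlike length limits. MDMA replicate 1 was an exception to a common order. Its share of 2.06% was like those with psilocybin, but its ratio of 0.469 was below them all. The part of length in the group differences was not tested. 

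The summed level of the mtDNA-encoded subunits did not follow that of the nuclear ones. Of 13 genes 8 were tested, and mt-Co2, mt-Atp6 and mt-Atp8 were listed at 0 in every library. None passed in any comparison, and 3 of 8 were positive between psilocybin and MDMA with a median of -0.35. Their summed level was 35868, 38847 and 32134 CPM with psilocybin, 33188, 52596 and 34156 CPM with MDMA, 80966, 37312 and 84337 CPM unstressed and 28063, 31535 and 98960 CPM with vehicle. Unstressed replicates 1 and 3 and vehicle replicate 3 were the highest, and the same 3 libraries had the lowest nuclear sums. In every library mt-Cytb held the largest part of the sum, for example 46998 CPM in unstressed replicate 1. Single genes differed. With psilocybin mt-Nd3 was low, at 5.15, 7.51 and 6.03 CPM, but above every other library. There mt-Nd1, at 4943, 5300 and 4015 CPM, lay above every unstressed and vehicle library and overlapped with MDMA. In contrast, mt-Cytb and mt-Co1 lay below every unstressed library. The ratio of nuclear to mtDNA-encoded subunits was 0.525, 0.471 and 0.477 with psilocybin and 0.372, 0.164 and 0.216 with MDMA, without overlap. Unstressed it was 0.0782, 0.271 and 0.0658, and with vehicle it spanned 0.0448 to 0.716.

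**Figure D5:**
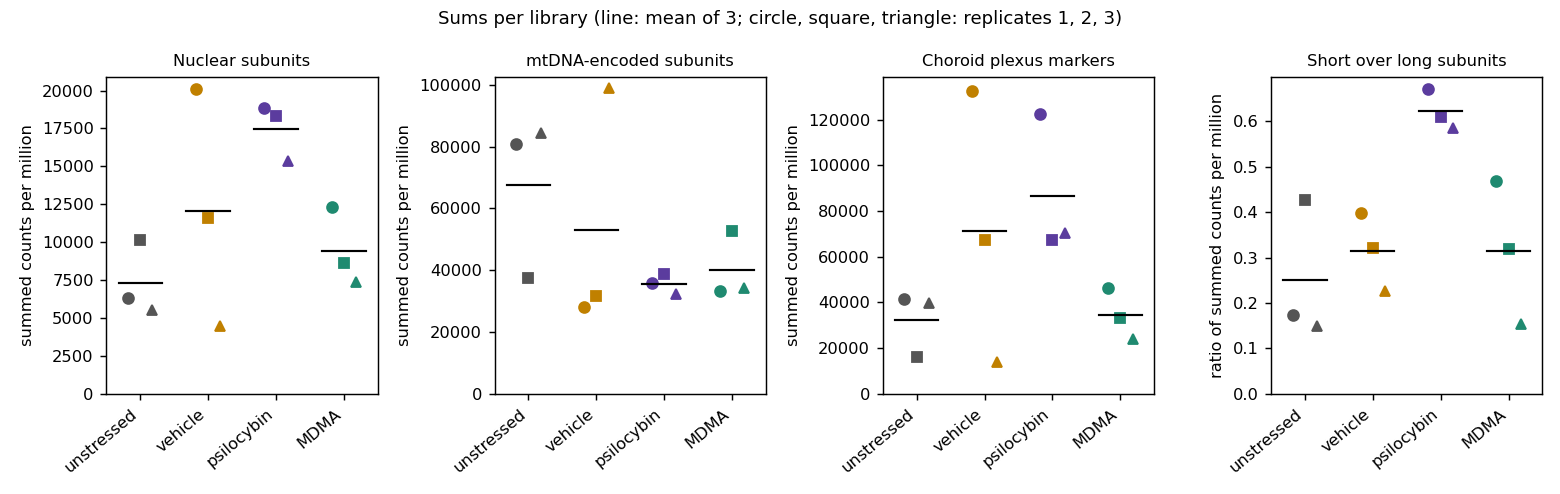
Per library and group (x axis): summed CPM of the 83 nuclear subunits, of the 8 tested mtDNA-encoded subunits and of the 12 choroid plexus markers, and the ratio of short to long nuclear subunits; the line is the mean of 3. Nuclear subunits, choroid plexus markers and the ratio are higher in every psilocybin library than in every MDMA and unstressed library.

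Genes that work with the subunits gave smaller differences in the same direction. Between psilocybin and MDMA, 14 of 16 complex I assembly factors were positive (median 0.42), as were 24 of 29 assembly factors of the other complexes (0.57), 10 of 12 electron carrier genes (0.44) and 15 of 18 genes of the citric acid cycle (0.43). The regulators of mitochondrial biogenesis had a negative median instead, -0.45, with 3 of 11 positive. Their sums overlapped, at 333, 306 and 341 CPM with psilocybin and 338, 524 and 353 CPM with MDMA. Of these sums that of MDMA replicate 2 stood well above the rest. In none of these lists did a member pass the adjusted threshold in that comparison. Against unstressed the same lists were positive in 15 of 16, 20 of 29, 9 of 12 and 16 of 18 genes with psilocybin, and in 5 of 11 for the regulators. The list medians lay below that of the subunits in both comparisons.

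Choroid plexus markers separated psilocybin from MDMA as the subunit sums did, while markers of several other cell types went the other way. The 12 choroid plexus markers, among them transthyretin (Ttr), summed to 122471, 67321 and 70153 CPM with psilocybin, 46417, 33150 and 23703 CPM with MDMA, 41304, 15909 and 39491 CPM unstressed and 132613, 67136 and 13830 CPM with vehicle. As with the subunits, the psilocybin sums lay above MDMA and unstressed without overlap, and vehicle replicates 1 and 3 lay at opposite ends. Single markers were less uniform against unstressed. Enpp2, Kl, Clic6, Kcnj13 and Slc4a5 overlapped, and the rest were higher with psilocybin without overlap. Ttr was at 61010, 36165 and 32046 CPM with psilocybin and 5704, 4209 and 5008 CPM unstressed. Clic6 was at 648, 536 and 419 CPM with psilocybin and 888, 212 and 879 CPM unstressed. None of the 12 markers was at 0 in any library. Between psilocybin and MDMA 12 of 12 were positive (median 1.05), and 9 of 12 had no overlap. Choroid plexus epithelium is rich in mitochondria. Markers of several other cell types had negative medians between psilocybin and MDMA. The lowest was that of neutrophils, with 1 of 8 tested markers positive and a median of -1.77. Their summed level was 98.4, 164 and 988 CPM with psilocybin and 2519, 562 and 1749 CPM with MDMA, with overlap. Of the classical monocyte markers 0 of 8 were positive (median -1.05), of border macrophages 1 of 8 (-0.97), of fibroblasts 0 of 8 (-0.82), of B and T cells 2 of 8 (-0.64), of neurons and glia 3 of 7 (-0.43) and of erythroid cells 0 of 6 (-0.36). Ccr2, the chemokine receptor of classical monocytes, was at 26, 19 and 75.4 CPM with psilocybin, 55.6, 60.9 and 125 CPM with MDMA, 80.1, 54.2 and 61.8 CPM unstressed and 0.283, 16.5 and 19.9 CPM with vehicle. Psilocybin and MDMA overlapped for Ccr2. The part of these cell types in the subunit differences was not tested.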

How the data were processed

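Per the file headers and the values, the authors deposited raw counts of reads per gene for every library, not normalized. STAR 2.7.5c, featureCounts 2.0.1, fastp 0.23.2 and edgeR 3.42.4 are named with mm10 in the submitters' processing notes, beside FastQC 0.11.9 and MultiQC 1.11. The NEBNext libraries took 5 ng of RNA, per the labels' protocols. For the unstressed libraries the file headers record featureCounts over RefSeq exons and no strand option. The stressed files carry versioned Ensembl identifiers, and no source used here states their release or counting command. A series table held 3 further columns of no sample used here, not analysed.

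The annotations were joined through GENCODE vM21 (GRCm38, also called mm10): 27571 genes, 26660 by symbol and overlapping locus and 911 by best exon overlap (Jaccard index of at least 0.5), holding 94.8% to 99.09% of each library's counts. CPM use the joined totals. Log2 differences come from edgeR 4.0.16 (R 4.3.3) quasi-likelihood tests with TMM scaling and filterByExpr over all 12 libraries, without a replicate block, and Benjamini-Hochberg adjustment at 0.05; the code was tested on simulated counts. Same-numbered psilocybin and vehicle libraries deviated together weakly, with correlations across genes of 0.112, 0.213 and 0.115. Between different numbers the correlation was at most 0.0556. In no other pair of groups was every same-numbered correlation above all the others. The origin of the replicate number is not given, and the submitters' own sample numbers have a gap in psilocybin but none in vehicle. Equal numbers were thus not shown to mark matched libraries. They were paired only in an alternative fit with a replicate block. Sums over members carry no test.

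Members, gene lists, complexes and tests were chosen with earlier results of these data known. Genes named are, where fewer than 3 members passed, the 3 with the smallest p in each comparison. Also named are the 2 with the highest level per kb of RefSeq exons in each complex, 8 catalytic subunits and the isoform sets. Other genes are named as exceptions or where an alternative called them. A gene that these rules name is not reported here. Alternatives were other scaling, filters and tools (DESeq2 1.42.0, limma 3.58.1), a replicate block, the libraries compared alone, genes with nearly the same exons and leaving out each library. Nearly the same exons meant a Jaccard index of at least 0.9 and exonic bases shared with no other gene within 1.1 times.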

Additional observations from a re-analysis of the deposited data

How the results depend on the processing

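No member passed the adjusted threshold in edgeR, and 100 counts of called members under an alternative were 0 as well, while 16 were not. DESeq2 called 3 members in vehicle versus unstressed, 3 in MDMA versus vehicle, 5 in psilocybin versus unstressed and 5 in the test of any difference; limma voom called 1, 1, 0 and 1. With sample quality weights, chosen after seeing the data, limma voom called 60 in psilocybin versus unstressed, 4 in MDMA versus unstressed and 37 in the test of any difference. The fit of the 6 libraries compared called 45 in psilocybin versus unstressed. Leaving out 1 library gave 0 to 5 calls in vehicle versus unstressed, 0 to 3 in psilocybin versus vehicle, 0 to 5 in MDMA versus vehicle and 0 to 3 in the test of any difference, with the calls made without vehicle replicate 2 and, in vehicle versus unstressed, also without vehicle replicate 3. The cause was not tested. The replicate block, which pairs same-numbered libraries, called 0 members in each comparison and changed no call; the median difference between psilocybin and MDMA was 1.36 with it.

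Under the alternatives 95 medians over the subunits kept their sign and moved by less than 0.78 on the log2 scale, the SD within groups of the subunits' median level per library; 1 reversed, since that of MDMA versus vehicle ran from -0.93 to 0.33 with 1 library left out and was above 0 without vehicle replicate 1. Summed over only the members with nearly the same exons, which are fewer genes, the CPM were 450.4 unstressed, 912.4 with vehicle, 1305.5 with psilocybin and 787.0 with MDMA, in the same order of groups. Leaving the 100 most abundant other genes out of the totals gave 9149 unstressed, 15816 with vehicle, 22669 with psilocybin and 11629 with MDMA, with psilocybin highest and unstressed lowest as before. Of the group sums, in all and by complex, 133 moved by less than the SD of the group's libraries under an alternative and 35 by more. Vehicle replicate 2 had the fewest counts, and vehicle replicate 3 the fewest genes with a count.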
